A study of Oryza sativa with 32 samples.

Results

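BBD1 (LOC4326932) is the rice gene for a bifunctional nuclease, and its transcript was followed here on every array of root and shoot in 4 genotypes. The gene was taken from the probe-to-gene table, in which 1 probe set is matched to it, out of 22436 probe sets that are matched to a single one of 17905 genes. BBD1 was chosen by its higher intensity in transgenic than in wild type roots on these same arrays, so the root values against wild type are given as a description with no test. RefSeq lists BBD1 as a protein-coding gene with 3 transcripts on chromosome 1 of assembly ASM3414082v1. Which of the transcripts the probe set reads was not analysed here.

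Proteins of the BBD family carry a bifunctional nuclease domain and cut both DNA and RNA. BBD1 of Arabidopsis and its relative from the wild rice Oryza minuta are known, from work in Arabidopsis, for a part in callose deposition driven by abscisic acid and in basal defence against a fungus. Abscisic acid is the hormone of water deficit. It binds receptors of the PYL family, which then hold back PP2C phosphatases and so free SnRK2 kinases, called SAPK in rice.

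The plants were rice of cultivar Nipponbare, either wild type or from the lines AGR1/7, AGR1/8 or AGR3/8. Each line carries OsANT1:HvAlaAT, a barley alanine aminotransferase gene behind a rice promoter that the labels call root-specific, and the lines are described as independent, so each stands for a single transformation. All plants, wild type included, grew in hydroponics on 5 mM ammonium at 28 °C and were sampled at mid-day of maximum tillering. Each of the 8 groups of tissue and genotype had 4 biological replicates, which gives 32 arrays. The same 4 wild type arrays of a tissue serve as the control of all 3 lines. The barley transgene itself was not analysed here.

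The tissue labels were checked on marker genes in wild type. Of 14 shoot marker probe sets, among them those of the small Rubisco subunit and chlorophyll-binding proteins, 13 were lower in root, with a median of -6.61 log2 for root minus shoot over the list, and 1 of glycolate oxidase was higher. All 8 root marker probe sets tested, among them those of the silicon transporters Lsi1 and Lsi2, were higher in root, with a median of 3.50 log2. The median over all probe sets was 0.02 log2. The median intensity of an array ran from 14.1 to 17.8, and from 47.7% to 52.3% of its probe sets lay under 16. In root, replicate 1 of wild type resembled its group the least, its mean correlation with the other 3 arrays being 0.954 where the 16 root arrays had a median of 0.982. The root comparisons with wild type are given with and without that array.

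In wild type root the BBD1 intensity was 63.6, 231.2, 165.2 and 206.1 on the 4 arrays. Replicate 1, the array that stood apart as a whole, gave the lowest value of the 32, and the other 3 arrays had a mean of 201 ± 33.3 (SD, n = 3). With all arrays the mean was 167 ± 73.8 (SD, n = 4). In terms of rank, BBD1 was brighter than 70.6% of the probe sets on the lowest of these arrays and 85.4% on the highest.

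Roots of AGR1/7 gave 533.8, 567.3, 575.5 and 568.0, a mean of 561 ± 18.6 (SD, n = 4). AGR1/8 roots gave 437.3, 504.2, 439.5 and 406.0, with a mean of 447 ± 41.2. AGR3/8 roots gave 386.7, 540.4, 563.5 and 475.2, with a mean of 491 ± 79.2. The lowest transgenic root value, 386.7, lay above the highest wild type value, 231.2, so 12 of 12 transgenic root arrays were above 4 of 4 wild type arrays. Over all probe sets tested in root, 1.16% showed the same separation, and 5.99%, 5.1% and 9.44% showed it for AGR1/7, AGR1/8 and AGR3/8 alone. On the arrays of the 3 lines BBD1 reached the 90.8th to the 93.9th percentile of its array.

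**Figure D1:**
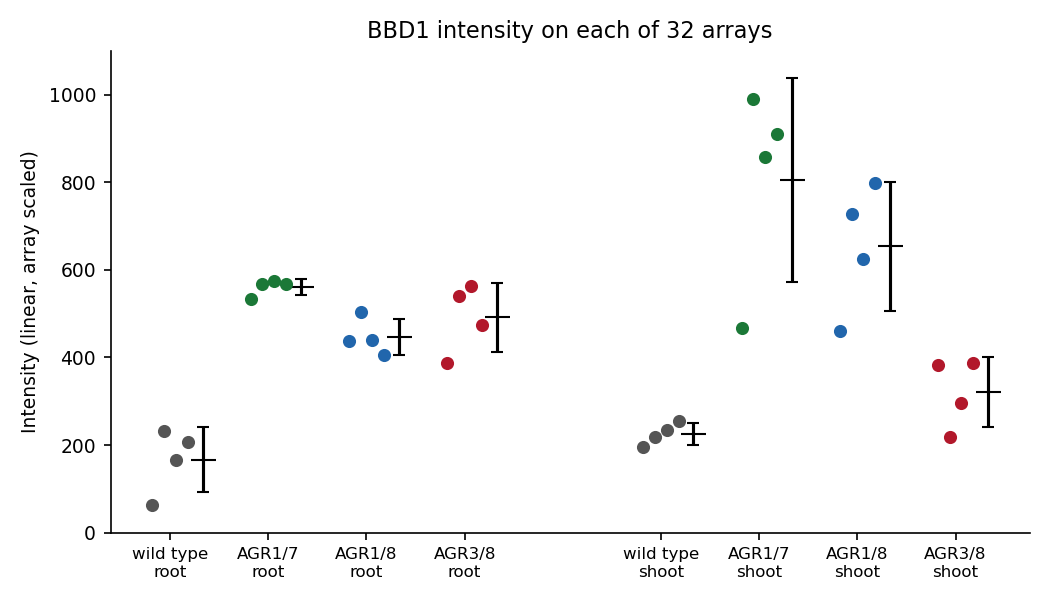
BBD1 intensity (linear, as scaled per array by the authors) on each of the 32 arrays, by genotype in root and shoot. Points are single arrays and the bars beside them are the mean and SD of 4 arrays. All 12 transgenic root arrays sit above the 4 wild type ones, and in shoot the AGR1/7 and AGR1/8 arrays sit above wild type while AGR3/8 overlaps it.

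Differences were taken as log2(intensity + 16). The mean of the 3 lines was above wild type root by 1.61 ± 0.20 log2 (SE of the fit), which is 3.05-fold on that scale. Without replicate 1 of wild type the difference was 1.25 log2. The single lines stood at 1.78 ± 0.25 log2 for AGR1/7, 1.46 ± 0.25 for AGR1/8 and 1.58 ± 0.25 for AGR3/8, and at 1.42, 1.10 and 1.22 without that array. These values chose the gene. For orientation, 3.28% of the 38130 probe sets tested in root were called higher in the transgenic mean by limma at an adjusted p under 0.05. This share rests on single arrays: the calls in both directions numbered 2027 with all arrays, 782 without replicate 1 of root wild type (1.23% higher), 1072 without replicate 3 of it and between 1227 and 3022 without any other array.

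A sign of RNA quality, the 3′ over 5′ signal ratio of GAPDH, moved with some root groups. Wild type roots had ratios of 4.84 to 18.3. Those of AGR1/7 (2.43 to 4.80) and AGR3/8 (2.54 to 4.68) lay below this range, and AGR1/8 (6.76 to 57.0) overlapped it and reached higher. BBD1 intensity was above wild type in all 3 lines. The same ratio for actin was 4.99 to 5.58 in wild type roots and 4.41 to 6.13 over the lines, which overlap. The part of RNA quality in the root values was not tested.

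How far the lines differed from each other in root was not the contrast that chose the gene. It rests on the same transgenic root arrays, however, so its tests are not independent of that choice. The line means spanned 0.32 log2, and the moderated F test of limma did not call a difference among them (adjusted p = 0.728), where 2.99% of probe sets were called. AGR1/7 minus AGR1/8 was 0.32 log2, with a 95% interval from -0.21 to 0.85 (adjusted p = 0.602; 2.44% called). AGR1/7 minus AGR3/8 was 0.20 log2 (-0.33 to 0.73; adjusted p = 0.815; 0.383% called), and AGR1/8 minus AGR3/8 was -0.12 log2 (-0.65 to 0.40; adjusted p = 0.888; 2.16% called). A difference of up to 0.85 log2 between AGR1/7 and AGR1/8 is thus within the interval.

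The contrast that chose the gene used no shoot array, although earlier results of these data were known at the choice. In wild type shoot BBD1 gave 194.8, 217.5, 233.9 and 256.2, with a mean of 226 ± 25.9 (SD, n = 4). AGR1/7 shoots gave 466.5, 990.5, 857.2 and 909.2, a mean of 806 ± 233. AGR1/8 shoots gave 460.2, 728.1, 625.7 and 799.2, with a mean of 653 ± 147. Both lines lay above wild type on 4 of 4 arrays without overlap, and replicate 1 was the lowest array in each. AGR3/8 shoots gave 382.5, 218.3, 296.5 and 387.8, a mean of 321 ± 80.4, and overlapped wild type through replicate 2, whose 218.3 lay below the highest wild type value of 256.2.

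BBD1 rose in the shoot of AGR1/7 by 1.72 ± 0.21 log2 (SE, limma adjusted p = 0.000213), or 3.29-fold, the 16th largest difference of 38130 probe sets in that comparison. In AGR1/8 shoots it rose by 1.45 ± 0.21 log2 (adjusted p = 0.00147), or 2.73-fold. In AGR3/8 shoots the difference was 0.45 ± 0.21 log2, with a 95% interval from 0.01 to 0.90, and it did not pass (adjusted p = 0.331). The share of all probe sets called higher was 0.873% in AGR1/7, 1.11% in AGR1/8 and 0.456% in AGR3/8. Without overlap and higher than wild type were 5.3% of probe sets in AGR1/7 shoots, 5.01% in AGR1/8 shoots and 3.53% in AGR3/8 shoots. Omission of any single shoot array left these calls as they were, with a largest adjusted p of 0.00149 for AGR1/7 and 0.00931 for AGR1/8. An exact two-sided permutation test over 4 against 4 arrays gave p = 0.0286 for AGR1/7 and for AGR1/8, the smallest it can give, and p = 0.0857 for AGR3/8, with no adjustment.

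The mean of the 3 lines was above wild type shoot by 1.21 ± 0.17 log2 (limma adjusted p = 0.00096), where 0.913% of probe sets were called higher. BBD1 was above the highest wild type array on 11 of 12 transgenic arrays. All 12 were above all 4 for 0.556% of probe sets, and the share with 11 of 12 was not counted. The calls in both directions numbered 599 with all shoot arrays and between 224, without replicate 3 of wild type, and 1018, without replicate 1 of AGR3/8. The call of the transgenic mean treats arrays as the unit. With the line as a random unit, a setting chosen after seeing the data, the same difference had an adjusted p of 0.134, and 115 shoot probe sets were called instead of 599. The GAPDH ratio was 1.52 to 4.25 on 3 wild type shoot arrays and 27.2 on replicate 2. Replicate 2 of AGR1/7 (19.8), replicates 3 and 4 of AGR1/8 (6.325 and 4.76) and replicates 1 and 3 of AGR3/8 (16.7 and 21.9) lay between these. The actin ratio was 5.64 to 6.89 in wild type shoots, 6.28 to 9.38 in AGR1/7, with 3 of 4 arrays above wild type, while AGR1/8 (5.32 to 7.47) and AGR3/8 (6.05 to 12.4) overlapped wild type. The part of RNA quality in the shoot values was not tested.

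The 3 lines differed from each other in shoot (F test of limma, adjusted p = 0.00913), where 2.26% of probe sets were called. AGR1/7 exceeded AGR3/8 by 1.26 ± 0.21 log2 (adjusted p = 0.00521), or 2.40-fold, and 2.12% of probe sets were called in that comparison. AGR1/8 exceeded AGR3/8 by 0.99 ± 0.21 log2 (adjusted p = 0.0337; 0.991% called). This second call was lost without replicate 2 (adjusted p = 0.116), 3 (0.071) or 4 (0.121) of AGR1/8 shoot, without replicate 2 (0.126) or 3 (0.101) of AGR3/8 shoot, and with dim probe sets kept in the test (0.0672). AGR1/7 minus AGR1/8 was 0.27 log2 with a 95% interval from -0.18 to 0.72 (adjusted p = 0.752; 0.325% called).

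**Figure D2:**
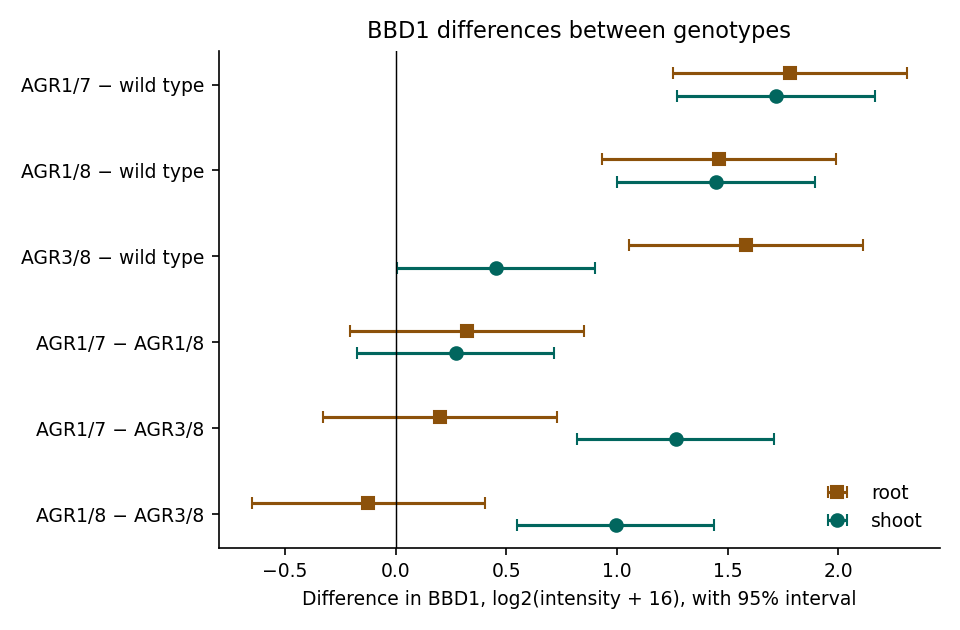
Differences in BBD1 on the log2(intensity + 16) scale between each line and wild type and between lines, in root (squares) and shoot (circles), with 95% intervals of the limma fit. In shoot, AGR3/8 lies 1.26 log2 below AGR1/7 and 0.99 below AGR1/8, while in root the 3 intervals between lines include 0.

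Whether the lines differed in another way in shoot than in root was tested in a fit of all 32 arrays. This fit shares the transgenic root arrays that chose the gene, so its tests are not independent of that choice. AGR1/7 minus AGR3/8 was 1.07 ± 0.35 log2 larger in shoot than in root (95% interval 0.36 to 1.77), and AGR1/8 minus AGR3/8 was 1.12 ± 0.35 log2 larger (0.41 to 1.83). AGR1/7 minus AGR1/8 differed by -0.05 log2 between the tissues (-0.76 to 0.66; adjusted p = 0.973). After adjustment over all probe sets neither of the first 2 passed (adjusted p = 0.126 and 0.172), where 0.949% and 0.538% of probe sets were called and 0.543% for the third, nor did the joint F test (adjusted p = 0.114), where 1.35% of probe sets were called. The F test passed without replicate 1 of root wild type (adjusted p = 0.0191) and with array weights (0.0133), while the sizes of the differences stayed at 1.07 and 1.12 log2 for AGR1/7 minus AGR3/8. That wild type array enters this test only through the estimate of the spread.

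Set side by side, root minus shoot was -0.52 log2 in wild type, -0.46 in AGR1/7, -0.51 in AGR1/8 and 0.61 in AGR3/8. Without replicate 1 of root wild type the first of these was -0.16. AGR3/8 was the genotype in which the root mean was above the shoot mean, 491 against 321. These values share the root arrays that chose the gene and carry no test, and each array had been scaled to the same overall level, so they compare shares of the signal of each tissue.

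Ordered by mean intensity, the groups ran from AGR1/7 shoot (806) through AGR1/8 shoot (653), AGR1/7 root (561), AGR3/8 root (491), AGR1/8 root (447) and AGR3/8 shoot (321) to wild type shoot (226) and wild type root (167). The ranges of neighbouring groups overlapped at every step but 1. That step lay between AGR1/8 root, whose lowest array was 406.0, and AGR3/8 shoot, whose highest was 387.8.

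The spread within groups also differed. The SD was 3.32% of the mean in AGR1/7 roots, 9.23% in AGR1/8 roots and 16.1% in AGR3/8 roots, against 44.3% in wild type roots and 16.6% there without replicate 1. In shoot it was 11.5% in wild type, 28.9% in AGR1/7, 22.5% in AGR1/8 and 25.0% in AGR3/8.

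Among genes with a probe set, 1 other was found by a BBD symbol, and its closeness to BBD1 in sequence was not analysed here. It is BBD2 (LOC4345362), with 3 probe sets. The 2 bright ones, with the endings s_at and x_at, come from the same transcript cluster and are not independent, and the ending x_at marks probes that may also bind other transcripts. The third was dim, with group means between 1.05 and 15.9, and did not pass in root (0.16 log2, adjusted p = 0.551). It was not tested in shoot.

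On the s_at probe set the BBD2 intensity in wild type root was 510.2, 658.2, 787.3 and 823.1. AGR1/7 roots gave 1712.9, 945.7, 1125.9 and 1074.8, AGR1/8 roots ran from 826.3 to 1298.3 and AGR3/8 roots from 958.2 to 1002.1. The lines thus lay above wild type with no overlap, by a narrow gap in AGR1/8 (826.3 against 823.1). Over all probe sets tested in root, 1.16% showed this for all 3 lines together. For AGR1/7, AGR1/8 and AGR3/8 alone 5.99%, 5.1% and 9.44% showed it. BBD2 rose in the mean of the 3 lines by 0.62 log2 on this probe set (adjusted p = 0.0331) and by 0.75 log2 on the x_at probe set (adjusted p = 0.0193). In that comparison 3.28% of all probe sets were called higher. Without replicate 1 of root wild type neither passed (0.48 log2, adjusted p = 0.137, and 0.61 log2, adjusted p = 0.0772). In AGR1/7 roots alone BBD2 was called on both probe sets (0.78 and 0.94 log2, adjusted p = 0.0437 and 0.0255), which was also lost without that array (0.0995 and 0.0579), and 1.52% of probe sets were called higher there. The calls on the s_at probe set were further lost in omissions of other single root arrays, with adjusted p up to 0.0529 for the transgenic mean and 0.115 for AGR1/7. Both s_at calls were also lost with dim probe sets kept (0.0533 and 0.0687) and with array weights (0.0585 and 0.0705).

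In shoot BBD2 had group means of 991 ± 188 in wild type, 1315 ± 269 in AGR1/7, 1536 ± 218 in AGR1/8 and 1415 ± 209 in AGR3/8 on the s_at probe set (SD, n = 4 each). The mean of the lines stood at 0.52 log2 (adjusted p = 0.0572) and at 0.56 log2 (0.0526) on the x_at probe set, and neither passed. Replicate 1 was the lowest array of all 4 shoot groups on both. With the replicate number as a block in the limma fit both were called (adjusted p = 0.000708 and 0.00182). Both were also called with array weights (0.0302 and 0.0204), and the x_at probe set with quantile scaling (0.0391). In the fit with no block both passed without replicate 1 of AGR1/7 (adjusted p = 0.0195 and 0.0204), of AGR1/8 (0.0377 and 0.0336) or of AGR3/8 (0.0332 and 0.0156). Neither passed in the omission of any other shoot array. Without replicate 1 of wild type the differences were 0.38 and 0.45 log2 (adjusted p = 0.264 and 0.227). In AGR1/8 shoots the x_at probe set passed (0.77 log2, adjusted p = 0.0266) and the s_at probe set did not (0.63 log2, adjusted p = 0.0543). The s_at probe set passed there with quantile (0.0422) or median (0.0429) scaling, array weights (0.0288) or the block (0.000781). It also passed without replicate 1 of AGR1/7 (0.0295), AGR1/8 (0.0257) or AGR3/8 (0.0443). Over all probe sets 1.11% were called higher there. The x_at call was lost with dim probe sets kept (0.0558) and without replicate 1, 3 or 4 of wild type or replicate 2, 3 or 4 of AGR1/8. BBD1 had its lowest shoot mean among the lines in AGR3/8 and BBD2 had its lowest in AGR1/7. Whether the genes differ in this was not tested.

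Genes with the most similar profile were looked for among 17058 other genes. The measure was the root mean square difference of log2(intensity + 16) over the 32 arrays, each profile being centred on its own mean. The median over all candidate probe sets was 0.90 log2, and the SD of BBD1 around its own mean was 0.78 log2. LOC4350698, a gene without a name in the table, was closest at 0.30 log2. Its probe set also carries the ending x_at for possible binding of other transcripts, and whether it shares sequence with BBD1 was not tested. These genes were picked for their likeness to BBD1 and their changes are given without a test.

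LOC4350698 had 65.2, 154.1, 166.8 and 155.0 in wild type root and means of 309 ± 30.7 in AGR1/7, 271 ± 18.1 in AGR1/8 and 244 ± 12.2 in AGR3/8. In shoot it had 123.1, 151.7, 211.6 and 200.9 in wild type. Its shoot arrays ranged between 530.2 and 642.4 for AGR1/7, between 304.6 and 499.7 for AGR1/8, and between 186.6 and 268.4 for AGR3/8. As with BBD1, its shoot values in AGR1/7 and AGR1/8 lay above wild type without overlap and those in AGR3/8 overlapped it, and replicate 1 was the lowest wild type root array.

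**Figure D3:**
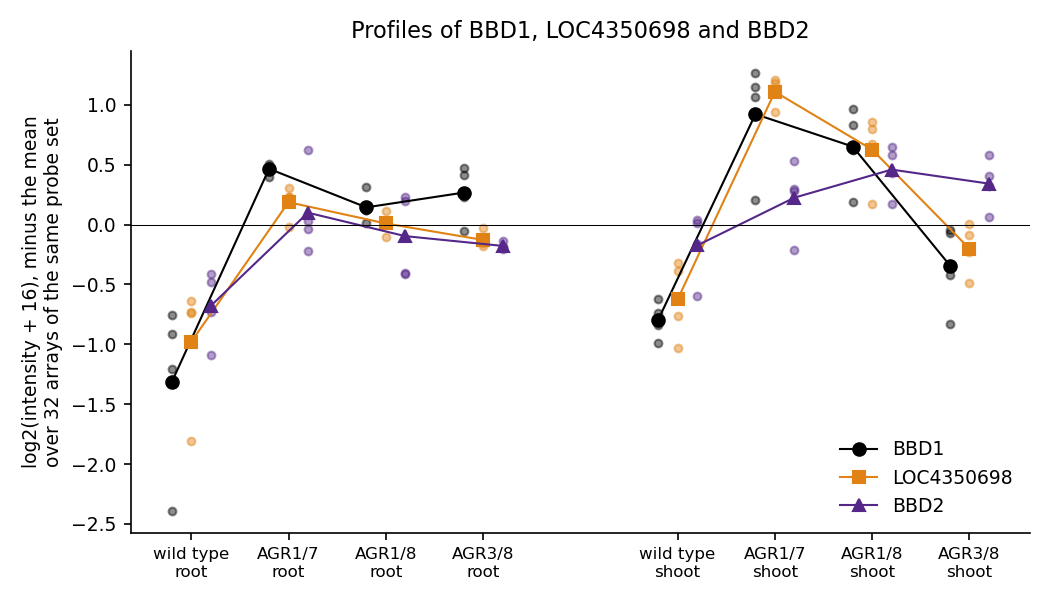
Profiles of BBD1, LOC4350698 and BBD2 (s_at probe set) over the 8 groups as log2(intensity + 16) minus the mean of the same probe set over 32 arrays. Small points are arrays and joined symbols are group means. LOC4350698 follows BBD1 with a root mean square difference of 0.30 log2 and BBD2 with 0.60 log2, and BBD2 does not share the low level of BBD1 in AGR3/8 shoot.

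The second closest gene was wsl3 (LOC4348823), known for white-striped leaves and tied to the plastid RNA polymerase, at 0.52 log2. Its mean intensity was 64.9 in wild type root against 115, 91.9 and 102 in the lines, and 79.3 in wild type shoot against 144, 133 and 89.6, in the order AGR1/7, AGR1/8 and AGR3/8. Its shoot level in AGR3/8 was thus the nearest of the lines to wild type, as for BBD1. The next 6 were unnamed genes of the table, from LOC4325191 at 0.55 to LOC9267458 at 0.59 log2. PRR1 (LOC4330000) was the 9th of 17058 and BBD2 the 10th, both at 0.60 log2.

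Likeness was also taken from the deviations of single arrays from their group means over the 32 arrays, which leaves out the differences between genotypes and tissues. LOC9268091 had the highest Pearson r with BBD1, 0.84, with a Spearman rho of 0.63. WNK9, a kinase of the WNK family, had an r of 0.83 and a rho of 0.73, and LOC4350698 an r of 0.83 and a rho of 0.79. The 2 arrays with the largest BBD1 deviations were replicate 1 of wild type root, 1.08 log2 below its group mean, and replicate 1 of AGR1/7 shoot, 0.71 log2 below. With both left out r was 0.69, 0.68 and 0.75 for these genes. These correlations share the arrays and their scaling and describe these arrays only.

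Genes of abscisic acid were counted because the hormone is linked to the function of BBD1. The signalling list held 68 genes found by symbol, 54 of them PP2C phosphatases of which many act outside this pathway. In root 3 of 80 probe sets rose in the transgenic mean and 2 fell, against 3.28% higher and 2.04% lower over all probe sets, and the median was 0.04 log2 against 0.03 over all. SAPK9, a SnRK2 kinase, rose by 0.79 log2 (adjusted p = 0.000525), its mean intensity being 264 in wild type roots against 552, 451 and 416 in AGR1/7, AGR1/8 and AGR3/8. PYL11, an abscisic acid receptor, had means of 928, 950 and 1021 in the lines against 715 in wild type, a rise of 0.43 log2 (adjusted p = 0.00245). Both kept their calls without replicate 1 of root wild type (0.78 and 0.41 log2, adjusted p = 0.00207 and 0.00707). PP2C05, a phosphatase, rose by 0.49 log2 (adjusted p = 0.0265), and its call was lost without replicate 1 of root wild type (0.0963) or replicate 3 (0.0576) and with array weights (0.053). The 2 that fell were PP2C33 (-0.60 log2, adjusted p = 0.0304) and PP2C36 (-0.55 log2, adjusted p = 0.0331). Neither was called without replicate 1 of root wild type. By line, root counts were 3 higher and 0 lower in AGR1/7, where 1.52% and 0.949% of all probe sets were called, 3 and 0 in AGR1/8 (1.25% and 1.23%), and 6 and 1 in AGR3/8 (3.2% and 2.21%). Without replicate 1 of root wild type, a setting chosen after seeing the data, 2 rose and 0 fell in the transgenic mean. Of all probe sets 1.23% were then called higher and 0.821% lower. By line, 3 then rose in AGR1/7, where 0.981% of all probe sets were called higher and 0.582% lower. In AGR1/8 2 rose (1.05% and 1.37%) and in AGR3/8 2 rose (1.8% and 1.45%), and 0 fell in each line.

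In shoot the same list had 0 of 76 probe sets higher and 4 lower in the transgenic mean by limma, against 0.913% higher and 0.658% lower over all, with a median of -0.05 log2. Among the lower members were SAPK1, a SnRK2 kinase (-0.31 log2, adjusted p = 0.0156), and PP2C44 (-0.37 log2, adjusted p = 0.0307). SAPK1 lost its call without replicate 3 (0.106) or 4 (0.0539) of shoot wild type. PP2C44 lost it without replicate 1 (0.112), 2 (0.08) or 3 (0.0593) of shoot wild type, replicate 4 of AGR1/7 shoot (0.0503) or replicate 2 of AGR1/8 shoot (0.0502). By line, shoot counts were 0 higher and 4 lower in AGR1/7, where 0.724% of all probe sets were called lower, 1 and 1 in AGR1/8 (0.708% lower), and 0 and 0 in AGR3/8 (0.412% lower). The 1 that rose in AGR1/8 shoots was SAPK9 (0.61 log2, adjusted p = 0.0494). In the shoot transgenic mean SAPK9 stood at 0.34 log2 (adjusted p = 0.209) and PYL11 at -0.01 log2 (0.976).

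The list for synthesis and breakdown of the hormone held 4 probe sets found by symbol. Of these, 1 was matched through the symbol aba1 (LOC4345807) and also stands in the signalling list as TRAB1, so it is counted in both. In root 0 of the 4 rose and 1 fell, where 3.28% and 2.04% of all probe sets were called. The 1 that fell was ABA8OX1, an abscisic acid hydroxylase that breaks the hormone down, at -0.71 log2 (adjusted p = 0.0339). It lost its call without replicate 1 (0.141) or 2 (0.0649) of root wild type, replicate 2 of AGR1/8 root (0.0518) or replicate 3 of AGR3/8 root (0.0522), with array weights (0.0736) and with dim probe sets kept (0.0539). By line it passed in AGR1/8 roots (-0.86 log2, adjusted p = 0.0497). Without replicate 1 of root wild type 0 of the 4 passed by limma in the transgenic mean or in a line. In shoot 0 of the 4 passed in the transgenic mean, where 0.913% of all probe sets were called higher and 0.658% lower, or in a single line. ABA8OX1 stood at -1.34 log2 there (adjusted p = 0.328), but its wild type shoot intensity was 414 ± 740 (SD), a spread above the mean. No callose synthase and no nuclease outside the BBD family was found by its symbol in the gene table, so those lists gave no value.

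The neighbours of BBD1 on the chromosome were looked at as the 10 genes on each side in the RefSeq order. Of these 20 genes 14 had a probe set, with 22 probe sets in all. In root 17 were tested, of which 0 rose and 1 fell in the transgenic mean, near the 3.28% and 2.04% over all probe sets, with differences from -0.58 to 0.49 log2. The 1 that fell was 1 of 2 probe sets of SWEET2B, a sugar transporter of the SWEET family (-0.54 log2, adjusted p = 0.0394). This call was lost without replicate 1 of root wild type (adjusted p = 0.116), and 1 then rose, LOC4326926 (0.81 log2, adjusted p = 0.0186). In AGR3/8 roots the same SWEET2B probe set passed with all arrays (-0.62 log2, adjusted p = 0.0492). Its other probe set passed there without replicate 1 of root wild type (-0.80 log2, adjusted p = 0.0358). Both were dim in root, with group means from 12.65 to 38.6. In shoot 0 of 15 passed by limma in the transgenic mean or in a single line, where 0.913% of all probe sets were called higher and 0.658% lower in the former, with differences of the transgenic mean from -0.51 to 0.50 log2. The adjacent gene LOC4326931 stood at 0.42 log2 in root (adjusted p = 0.0508; 0.28 log2 and 0.209 without that array) and -0.04 in shoot (0.922) on the brighter of its probe sets. LOC4326926, 5 genes away, rose in AGR3/8 roots by 1.64 log2 (adjusted p = 0.00415), from a mean of 43.5 to 156, with means of 36.4 in AGR1/7 and 35.5 in AGR1/8. Its difference in AGR3/8 was 1.96 log2 (adjusted p = 7.29e-05) without replicate 1 of root wild type. On 1 of its 3 probe sets LOC4326922, 10 genes away, fell in AGR1/8 roots by 1.77 log2 (adjusted p = 0.000133), and the difference was -1.94 log2 (4.66e-05) without that array.

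**Figure D4:**
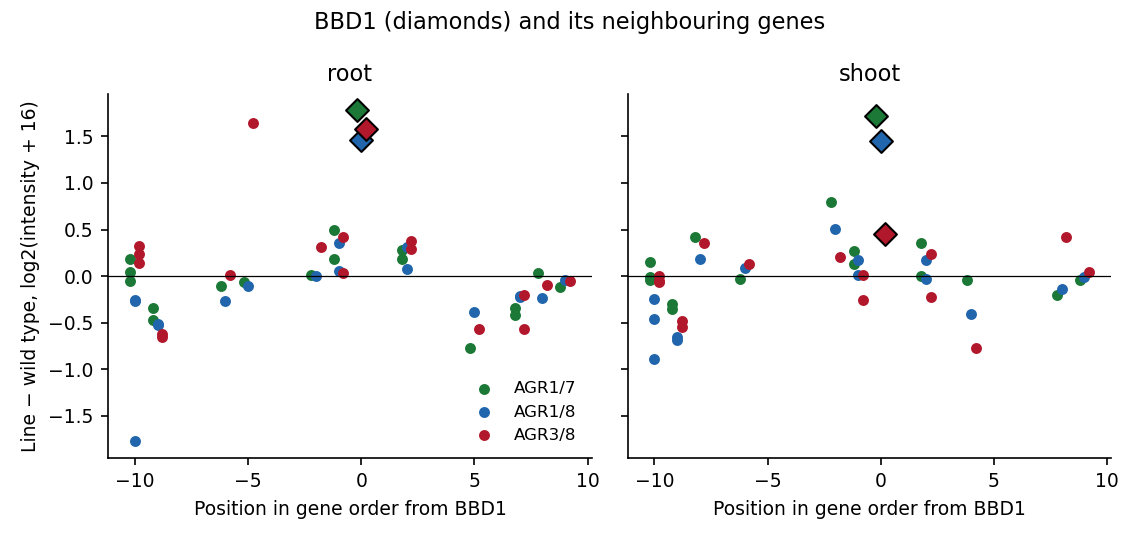
Difference of each line from wild type, log2(intensity + 16), for BBD1 (diamonds at 0) and the probe sets of the 10 genes on each side in gene order, in root and shoot. In shoot the neighbours lie between -0.89 and 0.80 log2, below the BBD1 values of 1.72 in AGR1/7 and 1.45 in AGR1/8. The BBD1 value of 0.45 in AGR3/8 shoot lies within that range. In AGR3/8 root the neighbour LOC4326926 stands at 1.64 log2, above BBD1 at 1.58.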

How the data were processed

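Biotin-labelled total RNA was hybridized to a 1-colour rice array. The deposited table holds 1 linear intensity per probe set and array, scaled by the authors to a common level. No source used here names the software. The number of arrays limits the precision. Of 57381 probe sets 187 controls were left out. Intensities were taken as log2(intensity + 16) without further scaling, the dimmest 33.3% in a tissue were dropped and 38130 were tested. Each tissue was fitted with limma 3.58.1 in R 4.3.3 (lmFit, eBayes with trend, 4 groups, 16 arrays), and tissues were compared in a fit of 32 arrays. Adjustment was by Benjamini-Hochberg over all tested probe sets, with calls made under 0.05. The pipeline was tested on simulated data.

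Genes were named from the array annotation and RefSeq. BBD1, the lists, the neighbours (10 genes on each side) and the likeness rule (8 closest profiles, 5 highest correlations of deviations) were chosen with earlier results of these data known. Sequences were not used here. Alternatives were other added constants, no filter, quantile and median scaling, array weights, the replicate number as a block, a joint fit and omission of each array. The line as a random unit, the permutation test and the root counts without 1 wild type array were chosen after seeing the data.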

Additional observations from a re-analysis of the deposited data

How the results depend on the processing

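The BBD1 calls in shoot for the transgenic mean, AGR1/7, AGR1/8 and the F test among lines held under other added constants, no filter, both rescalings, array weights, the joint fit and every omission, and AGR3/8 against wild type and the F test in root passed in none. Leaving out single arrays moved the shoot transgenic mean between 1.14 and 1.29 log2. The BBD1 calls that moved were these. The shoot transgenic mean (1.21 log2) was not called with the line as a random unit. AGR1/8 minus AGR3/8 in shoot (0.99 log2) was not called with dim probe sets kept, and leaving out single arrays moved it between 0.83 and 1.15 log2, with a largest adjusted p of 0.126. The difference between tissues in AGR1/7 minus AGR3/8 ran from 0.90 to 1.30 log2 with single arrays left out and was 1.12 with array weights. Its F test passed with array weights and without replicate 1 of root wild type (1.07 log2, adjusted p = 0.0191). The causes were not tested.

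The labels state no pairing by replicate number. Deviations of same-numbered arrays correlated between -0.17 and 0.42 in root, with a median of 0.049 against -0.019 for different numbers. In shoot they correlated between -0.05 and 0.19, with a median of 0.026 against -0.006. By their deviations 6 of 16 root and 8 of 16 shoot arrays were closest to their own number. Whether the number marks a pairing was not settled by these values. With the replicate block the shoot transgenic mean of BBD1 stayed at 1.21 log2 (adjusted p = 0.00065), and the calls of the transgenic mean went from 599 to 788 in shoot and from 2027 to 1774 in root. Under the block BBD2 was called in shoot on both bright probe sets (adjusted p = 0.000708 and 0.00182) and lost its root call on the s_at probe set (0.0519). Intensities near background, as for the dim BBD2 probe set, set no firm level.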

Other observations

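Replicate 1 was the lowest BBD1 array in 6 of the 8 groups. The exceptions were AGR1/8 root, where replicate 4 was lowest at 406.0, and AGR3/8 shoot, where replicate 2 was lowest at 218.3. Of 34192 probe sets tested in both tissues, 1.72% had replicate 1 lowest in at least as many groups, and 3.04% had some replicate number lowest in at least as many. The pattern was noticed in these data, and the labels do not say whether the number marks a shared day or batch.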
